A study of Mus musculus with 2 samples.

Results

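A set of 10 genes that act directly below nucleotide and chemokine receptors was followed in Gr-1+ CD11b+ cells, mouse myeloid cells, mainly neutrophils and monocytes, defined by these surface antigens. They were chosen by symbol: the G protein alpha subunit genes Gnai2, Gnai3, Gnas, Gnaq, Gna15 and Gna13, the genes of the regulators of G protein signalling Rgs1, Rgs2 and Rgs18, and the arrestin gene Arrb2. All 10 were found among the 24346 gene symbols of the deposited tables. The cells came from BALB/c mice given 3% dextran sulfate sodium, a polymer that induces colitis, for 6 days, and both groups share this. In the ATPγS group (n = 1 library) the cells were stimulated with ATPγS, a slowly hydrolysed ATP analogue, at 100 μM for 2.5 hours, the unit's prefix being read from a symbol-font character of the label. The control group (n = 1 library) was labelled as stimulated without ATPγS. How many mice gave the cells is not stated in the labels. With 1 library per condition there was no replicate check and no test, so every difference below is between these libraries.

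A heterotrimeric G protein couples a receptor to its effectors: the activated receptor loads the alpha subunit with GTP, and alpha and the beta-gamma pair then act separately. Alpha subunits of the Gi class inhibit adenylyl cyclase and release the beta-gamma pairs that drive chemotaxis, Gs stimulates adenylyl cyclase, the Gq class activates phospholipase C beta, and the G12/13 class acts on the actin cytoskeleton. RGS proteins speed GTP hydrolysis by alpha subunits and so shorten the signal, and arrestins bind phosphorylated receptors, uncouple them from G proteins and lead them to endocytosis. Chemokine receptors and formyl peptide receptors of neutrophils couple mainly through Gi, whereas P2Y nucleotide receptors use Gq, Gi or Gs according to the receptor and P2X receptors are ion channels that need no G protein.

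Of the 10 genes, 8 were listed lower in the ATPγS library and 2 higher. Of all genes 49.6% were lower at a mean of at least 1 FPKM and 60.7% at a mean of at least 20 FPKM, the level of 6 of the 10, so the tables as a whole leaned the same way there. Of these 6 members 4 were lower. At a mean of 5 to 20 FPKM all 4 members were lower, beside 53.4% of genes. Gna15 and Rgs18, both of low level, were at least 2-fold lower, and Gnai3 and Gnaq were at least 1.5-fold lower, on the scale log2((ATPγS FPKM + 1) / (control FPKM + 1)). FPKM are fragments scaled to transcript length and to the library's mapped fragments. Gna13 and Rgs1 were the higher ones, by less than 1.5-fold. All 10 passed the filter of a mean of at least 1 FPKM over both libraries. Their count of 2 at least 2-fold lower stands beside a background of 9.91% (1815 of 18311 genes), and their count of 0 at least 2-fold higher beside 13.8% (2521 genes). The 4 at least 1.5-fold lower stand beside 20.7% of all genes, and the 0 at least 1.5-fold higher beside 24.1%. For 9 of the 10 genes the counting interval of the ratio, given with each below, left out no difference, and so it did for 47.4% of 15990 genes. At a mean of at least 20 FPKM this was 6 of 6 members beside 59.8% of genes, and at 5 to 20 FPKM 3 of 4 beside 49.3%. These counts rest on reads estimated from 1 length per gene, and a shorter length gives fewer reads and a wider interval. For Gna13 it was 3537 bases, with coding transcripts of 914 and 6160 bases. For Rgs2 it was 1804.5 bases, with coding transcripts of 588 and 3021 bases. Intervals at other lengths were not computed. The median log2 ratio of the 10 genes was -0.43, beside 0.01 over all 18311 genes and -0.13 over the 6125 genes at a mean of at least 10 FPKM.

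RefSeq promoter windows (GRCm38.p6, 250 bases before to 50 after the transcription start) were found for 6 of the 10 genes, namely Gna15, Gnai3, Gnaq, Gna13, Gnas and Rgs2. Gnai2, Rgs1, Rgs18 and Arrb2 are named only. The windows of the 3 alpha subunit genes that were at least 1.5-fold lower with ATPγS, and of the 1 that was higher, are shown to set their letters side by side, on the gene's own strand. Capitals mark the E-box (CACGTG), the ETS core (CCGGAAGT), the GC box (GGGCGG) and the core of the cAMP response element (TGACG), searched on both strands.
Gna15, chr10:81524176-81524475, minus strand: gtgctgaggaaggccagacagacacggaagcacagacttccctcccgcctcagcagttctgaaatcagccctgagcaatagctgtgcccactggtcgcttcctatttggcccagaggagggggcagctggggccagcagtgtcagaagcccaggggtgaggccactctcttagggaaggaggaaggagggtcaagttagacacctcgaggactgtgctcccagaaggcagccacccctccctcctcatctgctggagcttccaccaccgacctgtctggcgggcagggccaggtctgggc
Gnai3, chr3:108146103-108146402, minus strand: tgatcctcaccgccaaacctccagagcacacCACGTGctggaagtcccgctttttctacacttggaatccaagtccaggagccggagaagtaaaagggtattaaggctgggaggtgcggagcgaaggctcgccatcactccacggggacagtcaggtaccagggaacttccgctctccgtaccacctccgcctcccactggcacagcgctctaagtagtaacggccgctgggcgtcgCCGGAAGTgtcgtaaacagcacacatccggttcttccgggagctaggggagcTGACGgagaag
Gnaq, chr19:16132434-16132733, plus strand: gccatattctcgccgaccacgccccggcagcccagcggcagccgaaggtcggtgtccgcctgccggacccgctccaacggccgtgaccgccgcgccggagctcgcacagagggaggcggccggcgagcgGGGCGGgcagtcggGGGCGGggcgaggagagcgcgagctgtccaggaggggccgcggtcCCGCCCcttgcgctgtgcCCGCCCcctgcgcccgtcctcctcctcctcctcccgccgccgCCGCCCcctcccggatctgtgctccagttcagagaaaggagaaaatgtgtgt
Gna13, chr11:109362544-109362843, plus strand: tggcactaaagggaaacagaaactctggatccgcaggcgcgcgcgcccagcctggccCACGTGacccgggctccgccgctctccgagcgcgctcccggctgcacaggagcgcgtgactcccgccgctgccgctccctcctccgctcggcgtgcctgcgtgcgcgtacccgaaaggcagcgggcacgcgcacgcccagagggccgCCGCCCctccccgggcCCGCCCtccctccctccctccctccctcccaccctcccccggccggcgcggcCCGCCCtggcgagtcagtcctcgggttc
The Gna15 window held none of the 9 motifs searched and 6 CpG dinucleotides, against a median of 7 over all 32851 windows of the table. Gnai3 held 21 CpG, Gnaq 39 and Gna13 40. The Gnai3 window held 1 E-box, 1 ETS core, 1 core of the cAMP response element and 1 match of the NF-κB pattern (GGGA, 4 bases of any kind, CC). The E-box was also found once in Gna13, and 7.15% of all windows hold it. The ETS core occurs in 3.89% of all windows, the cAMP response element core in 20.8% and the NF-κB pattern in 20.7%. GC boxes numbered 5 in Gnaq and 3 in Gna13, and 35.7% of windows hold at least 1. The full cAMP response element TGACGTCA, which contains its core and occurs in 1.79% of windows, the AP-1 site TGANTCA (7.81%), the CCAAT box (37.4%) and the TATA box TATAAA (13.6%) had no match in these 4 windows. Outside them, the Rgs2 window held 2 of these cores, 4 GC boxes and 1 CCAAT box. A match describes the letters of these windows only.

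The 2 libraries were shallow. Their depth, read from the steps of low FPKM values, was about 2857000 fragments for ATPγS and 2140000 for control. Of the genes that code for the sorting antigens, Itgam (CD11b) stood at 144 FPKM in the ATPγS library and 112 FPKM in the control, and Ly6c1 at 166 and 133 FPKM in that order of libraries. Ly6g is not analysed here. The neutrophil genes S100a8 and S100a9 were listed far above Itgam and Ly6c1 in both libraries, S100a9 at 14942 FPKM with ATPγS and 13776 FPKM in the control. Of the 3 sorting antigen genes found, 2 were higher with ATPγS and 1 lower. Of 13 neutrophil genes, 8 were higher with ATPγS and 5 lower, and 0 were 2-fold apart. The lists of other cell types were not flat. The summed FPKM of 13 monocyte and macrophage genes was 1729 with ATPγS and 1467 in the control, of 11 dendritic cell genes 282 and 274 in the same order, of 10 erythroid genes 1019 and 1257, and of 11 epithelial genes 153 and 206. The summed FPKM of 16 T and NK cell genes was 254 with ATPγS and 444 in the control, of 13 B and plasma cell genes 979 and 1399.5, and of 15 platelet and megakaryocyte genes 155 and 78.1. Single genes weighed heavily in some sums. Of the most abundant, Apoe (monocytes and macrophages) stood at 716 FPKM with ATPγS and 611 FPKM in the control. In the same order Ccr7 (dendritic cells) stood at 181 and 167 FPKM and Jchain (B and plasma cells) at 643 and 930 FPKM. Gzma (T and NK cells) was higher, at 66.1 and 45.8 FPKM. In turn, 9, 5, 2 and 5 genes of these lists were higher with ATPγS. Lower were 4, 6, 10 and 11, all at a mean of at least 1 FPKM. Fewer cells of a type and less RNA per cell cannot be told apart in such bulk libraries.

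**Figure D1:**
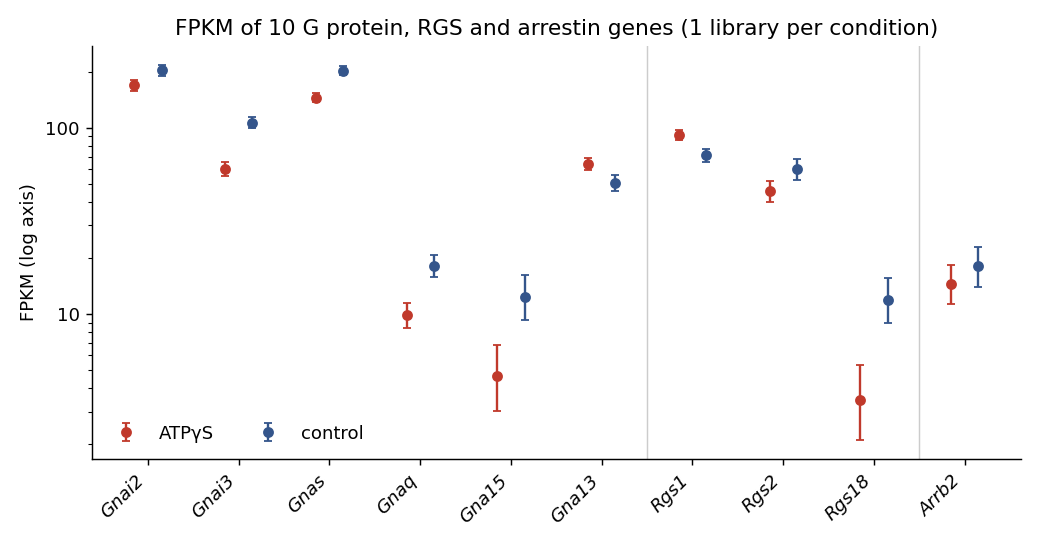
FPKM (log axis) of the 6 G alpha subunit genes, the 3 RGS genes and Arrb2 in the ATPγS library (red, left of each pair) and the control library (blue); bars are 95% exact Poisson intervals of the estimated read count and cover counting error only. Gna13 and Rgs1 are the 2 genes whose ATPγS point lies above the control point.

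Gnai2 and Gnai3 encode the Gi alpha subunits that predominate in leukocytes. Gnai2 (chromosome 9, 107614125 to 107635367, GRCm38) stood at 169 FPKM in the ATPγS library and 203.3 FPKM in the control, a log2 ratio of -0.27. Gnai3 (chromosome 3, 108107280 to 108146146) stood at 60.2 FPKM in the ATPγS library and 107 FPKM in the control, a log2 ratio of -0.82. Gnai3 was thus 1.77-fold lower and Gnai2 1.20-fold lower. From about 561 and 745 reads in the ATPγS and control libraries, the 95% counting interval of the Gnai3 ratio was 0.505 to 0.6302, and that of Gnai2, from 858 and 773 reads, was 0.754 to 0.917. These intervals, exact binomial on the estimated reads, cover counting error only. Gnai3 was the most abundant of the 4 genes that were at least 1.5-fold lower: it was 1 of 6 members at a mean of at least 20 FPKM to be so, beside 16.4% of all 3480 genes at that level. At least 1.5-fold higher were 0 of these 6, beside 7.59%, and at least 2-fold higher 0, beside 2.3%. The FPKM of Gnai2 was 2.81 times that of Gnai3 with ATPγS and 1.91 times in the control. These proportions differed by a factor of 1.47 (counting interval 1.27 to 1.71), from which the scaling between libraries cancels. No window of 50 bases of the coding transcripts of either gene occurred in a transcript of another gene. The third gene of the subfamily, Gnai1, was low, at 1.45 FPKM with ATPγS and 3.40 FPKM in the control (interval 0.197 to 0.872).

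Gnas encodes the stimulatory alpha subunit, through which adenosine and prostaglandin receptors raise cAMP. It stood at 145 FPKM in the ATPγS library and 203.0 FPKM in the control, a log2 ratio of -0.48 and a 1.40-fold difference, with a counting interval of the ratio of 0.660 to 0.773. In the control Gnai2 and Gnas were level within counting error (intervals 189 to 218 and 192 to 214 FPKM), and with ATPγS the FPKM of Gnai2 was 1.16 times that of Gnas. Gnas is an imprinted locus with several first exons (chromosome 2, 174284320 to 174346744), and RefSeq gave it 4 promoter windows. Of its 50-base windows 20.4% also occur in transcripts of other genes, so its value is uncertain. The deposited value is 1 number per symbol and does not separate its transcripts. Exons of the antisense gene Nespas cover 8.83% of the exon bases of Gnas and those of Gm20721 13.1%, and the library kit does not mark strand, so reads there cannot be assigned to either strand. Nespas was listed at 7.19 FPKM with ATPγS and 1.25 FPKM in the control, opposite in direction to Gnas and far below its level.

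The Gq class links receptors to phospholipase C beta and calcium release. Gnaq, its widely expressed member, stood at 9.89 FPKM in the ATPγS library and 18.2 FPKM in the control (log2 ratio -0.82, counting interval of the ratio 0.439 to 0.667). Gna15, the member found mainly in haematopoietic cells and able to couple to many receptors, stood at 4.65 FPKM in the ATPγS library and 12.4 FPKM in the control. Its log2 ratio was -1.25 and its difference 2.67-fold, from about 26 and 52 reads, which gives a counting interval of 0.224 to 0.611. Gna11, the close relative of Gnaq, stood at 6.31 FPKM with ATPγS and 8.90 FPKM in the control, and its counting interval (0.496 to 1.03) includes no difference. Gna14, the remaining gene of the class, was listed the other way, at 0.854 FPKM with ATPγS (about 6 reads) and 0.114 FPKM in the control (about 1 read), and its interval includes no difference. Of the 4 genes of the class, Gnaq and Gna15 were thus lower beyond counting error. Gnaq spans 254633 bases of chromosome 19 (16132831 to 16387463) and Gna15 21920 bases of chromosome 10 (81502306 to 81524225).

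Gna13, whose product restrains or polarises migrating leukocytes, went the other way. It stood at 64.1 FPKM in the ATPγS library and 50.4 FPKM in the control, a log2 ratio of 0.34. At the length used for Gna13 the counting interval of its ratio was 1.12 to 1.45. Its relative Gna12 stood at 12.5 FPKM with ATPγS and 13.03 FPKM in the control, a counting interval of 0.730 to 1.27 that includes no difference. With ATPγS Gna13 was level with Gnai3 within counting error (59.3 to 69.3 and 55.3 to 65.4 FPKM), whereas in the control its FPKM was 0.473 times that of Gnai3. The proportion of Gna13 to Gnai3 thus differed by a factor of 2.25 between the libraries (counting interval 1.90 to 2.67), and that of Gna13 to Gnai2 by 1.53 (1.299 to 1.80). Gna13 lies on chromosome 11 (109362831 to 109401369), and 1.83% of its 50-base windows also occur in transcripts of other genes.

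Summed over all 16 G alpha genes, FPKM came to 486 in the ATPγS library and 630 in the control. The 6 genes above made up 93.1% of that sum with ATPγS and 94.3% in the control. The Gi class held 49.7% with ATPγS and 51.1% in the control, and the Gs class 30.1% and 32.5% in the same order. The Gq class held 4.46% with ATPγS and 6.30% in the control. The G12/13 class held 15.8% with ATPγS and 10.1% in the control, the one class with a higher sum with ATPγS (76.6 FPKM, against 63.4 FPKM in the control).

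**Figure D2:**
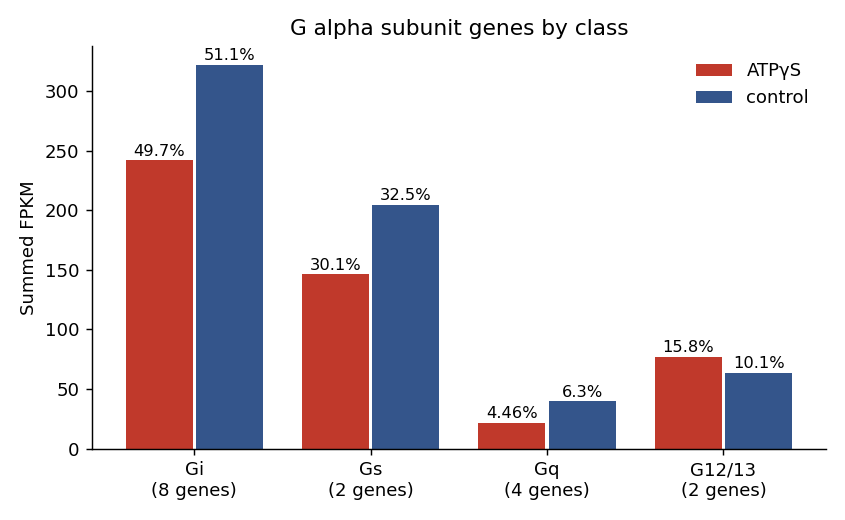
Summed FPKM of G alpha subunit genes by class in the ATPγS library (red, left) and the control library (blue), with each class's percentage of the summed FPKM of all 16 genes above its bar; there is 1 library per condition and no error bar. The G12/13 bar is the one that is taller with ATPγS.

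Rgs1, Rgs2 and Rgs18 encode small RGS proteins; those of Rgs1 and Rgs18 act on Gi and Gq alpha subunits, and that of Rgs2 mainly on Gq. Rgs1, a gene induced in activated lymphocytes and myeloid cells that dampens chemokine responses, stood at 91.5 FPKM in the ATPγS library and 71.3 FPKM in the control. Its log2 ratio was 0.35 with a counting interval of the ratio of 1.16 to 1.42. Rgs2, a gene that responds to cAMP and calcium in many cells, stood at 45.8 FPKM in the ATPγS library and 59.9 FPKM in the control. Its log2 ratio was -0.38, with an interval of 0.636 to 0.921 at the length used for it. The FPKM of Rgs1 was 1.997 times that of Rgs2 with ATPγS and 1.19 times in the control, a factor of 1.68 between the libraries (interval 1.35 to 2.08). Rgs18, a gene of megakaryocytes, platelets and other blood cells, stood at 3.46 FPKM in the ATPγS library and 11.9 FPKM in the control. This was the lowest log2 ratio of the 10 genes (-1.53), a 3.44-fold difference, from about 20 and 52 reads (interval 0.163 to 0.491).

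Gna15, Rgs18, Gnaq and Arrb2 are the 4 members at a mean of 5 to 20 FPKM, where large differences were common over all genes. At that level 2 of the 4 were at least 2-fold lower, beside 11.2% of 6412 genes, and 3 of the 4 at least 1.5-fold lower, beside 23.3%. At least 2-fold higher were 0 of the 4, beside 10.3%, and at least 1.5-fold higher 0, beside 20.1%. Of 345 olfactory and vomeronasal receptor genes at the same FPKM level, 37.4% were at least 2-fold apart, 57 higher with ATPγS and 72 lower. These receptor genes have no stated role in these cells and were matched by FPKM, not by length or reads. Their spread need not be that of the 4 members.

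Markers of platelets, which are rich in Rgs18, lay the opposite way: 7 of 11 platelet and megakaryocyte genes were at least 2-fold higher with ATPγS and 0 at least 2-fold lower. Pf4, the platelet factor gene, stood at 52.9 FPKM with ATPγS and 13.6 FPKM in the control, Ppbp at 27.5 and 28.8 FPKM in the same order, and Gp9, chosen after its values were seen, was listed at 0 in both. Of 14 eosinophil, basophil and mast cell genes, 4 were at least 2-fold lower with ATPγS and 1 at least 2-fold higher, and the summed FPKM of all 15 genes of that list was 116 with ATPγS and 168 in the control. Of 16 T and NK cell genes 6 were at least 2-fold lower and 1 higher, and of 12 B and plasma cell genes 3 were lower and 1 higher, whereas Rgs1, which lymphocytes also express, was higher. None of the T and NK or B and plasma cell genes was listed at 0 in either library. The part of these cell types in the values of the 10 genes was not tested.

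Across all 21 RGS genes the summed FPKM was 279 with ATPγS and 306 in the control, and Rgs1, Rgs2 and Rgs18 together held 50.5% of it with ATPγS and 46.8% in the control. Rgs1 ranked first with ATPγS, at 32.8% of the sum, whereas in the control it held 23.3% and Rgs19 ranked first. Rgs19, whose product GAIP acts on Gi alpha subunits, stood at 41.1 FPKM in the ATPγS library and 88.1 FPKM in the control, a log2 ratio of -1.08 with a counting interval of the ratio of 0.379 to 0.572. At its level of at least 20 FPKM, 5% of all genes were at least 2-fold lower. The proportion of Rgs1 to Rgs19 was 2.23 with ATPγS and 0.810 in the control (factor 2.75, interval 2.18 to 3.47). Rgs10, a gene of myeloid cells and platelets, was at least 2-fold higher, at 27.1 FPKM with ATPγS and 11.5 FPKM in the control (interval 1.35 to 4.21). Rgs3 stood at 22.1 FPKM with ATPγS and 19.5 FPKM in the control and Rgs16 at 6.26 and 8.19 FPKM in the same order, and the intervals of both include no difference. Of the 14 other RGS genes at a mean of at least 1 FPKM, Rgs10 was the 1 at least 2-fold higher and Rgs19 the 1 at least 2-fold lower, and their median log2 ratio was 0.17. After scaling to a median log2 ratio of 0 the count lower was 0, and with a pseudocount of 5 FPKM the count higher was 0.

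**Figure D3:**
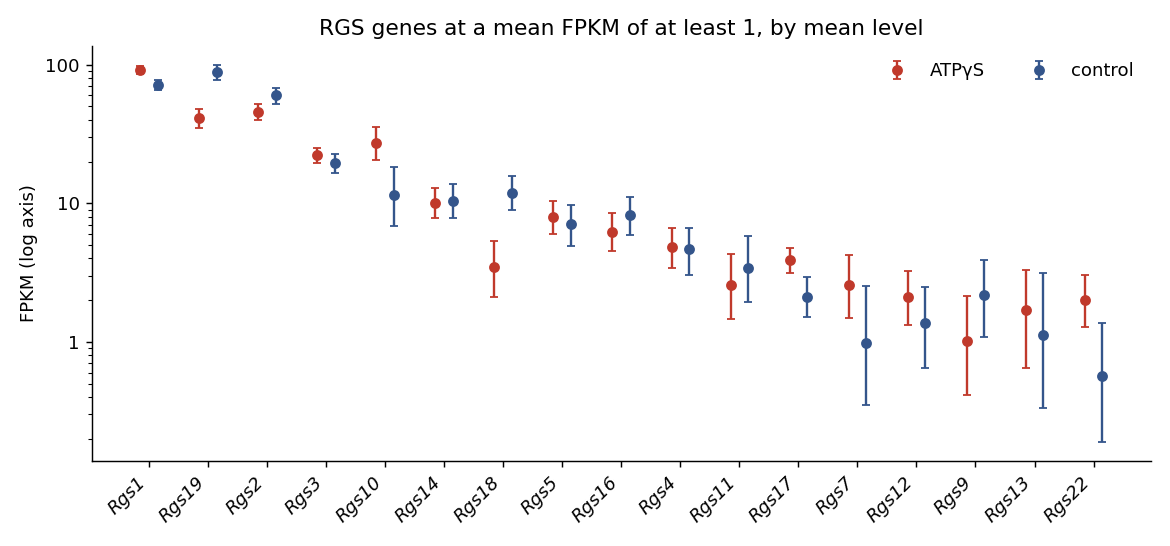
FPKM (log axis) of RGS genes at a mean of at least 1 FPKM, ordered by mean, in the ATPγS library (red, left of each pair) and the control library (blue), with 95% exact Poisson intervals of the estimated reads. Rgs19 and Rgs18 show the ATPγS point well below the control point, and Rgs10 above it.

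The 3 RGS genes lie together in an RGS cluster of chromosome 1 that holds 5 genes on the minus strand within 776 kb and no other protein-coding gene. In order of position these are Rgs2 (143999338 to 144004161), Rgs13, Rgs1 (144242296 to 144249242), Rgs21 and Rgs18 (144752683 to 144775435). These 3 did not share a direction, with log2 ratios of -0.38 for Rgs2, 0.35 for Rgs1 and -1.53 for Rgs18. Rgs13 stood at 1.69 FPKM with ATPγS and 1.13 FPKM in the control, and Rgs21 was listed at 0.506 FPKM with ATPγS and at 0 in the control.

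Arrb2 encodes beta-arrestin 2, which uncouples and internalises phosphorylated receptors. It stood at 14.6 FPKM in the ATPγS library and 18.1 FPKM in the control, a log2 ratio of -0.30. Of the 10 genes it was the 1 whose counting interval (0.569 to 1.14, from about 72 and 67 reads) includes no difference. Its paralogue Arrb1 was much lower, listed 23.1 times below Arrb2 with ATPγS and 8.62 times below it in the control. Arrb1 stood at 0.63 FPKM with ATPγS and 2.105 FPKM in the control, a counting interval of the ratio of 0.147 to 0.596. Arrb2 lies on chromosome 11 (70432635 to 70440828).

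Set in order by FPKM, the members ran Gnai2, Gnas, Rgs1, Gna13, Gnai3, Rgs2, Arrb2, Gnaq, Gna15 and Rgs18 with ATPγS. In the control they ran Gnai2, Gnas, Gnai3, Rgs1, Rgs2, Gna13, Gnaq, Arrb2, Gna15 and Rgs18. Neighbours whose counting intervals overlapped with ATPγS were Gna13 and Gnai3, Arrb2 and Gnaq (11.4 to 18.3 and 8.39 to 11.5 FPKM), and Gna15 and Rgs18 (3.03 to 6.80 and 2.11 to 5.32 FPKM). In the control they were Gnai2 and Gnas, Rgs1 and Rgs2, Rgs2 and Gna13, Gnaq and Arrb2, Arrb2 and Gna15, and Gna15 and Rgs18. Arrb2 and Gna15 overlapped there from 14.0 to 16.2 FPKM. With values from 2 libraries only, no search for genes of like pattern was made.

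**Figure D4:**
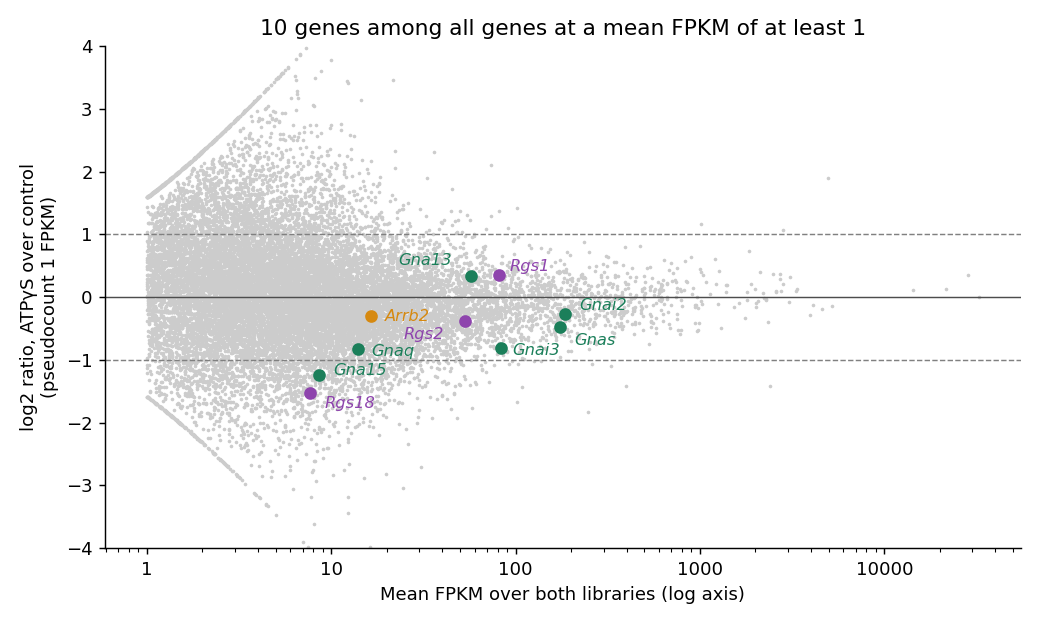
Log2 ratio of ATPγS over control (pseudocount 1 FPKM) against mean FPKM (log axis) for all 18311 genes at a mean of at least 1 FPKM (grey), with G alpha genes in green, RGS genes in purple and Arrb2 in orange; dashed lines mark 2-fold, and 58 genes beyond 4 on the vertical axis are not drawn. Gna15 and Rgs18 lie below the lower dashed line, in a range of levels where the grey points spread widely.

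The genes around these 10 were taken as 6 families with 94 genes found, of which 83 passed a mean of at least 1 FPKM. Of these 12 were at least 2-fold higher with ATPγS, 5 at least 2-fold lower and 66 between, with a median log2 ratio of 0.02. These shares stand beside the 13.8% and 9.91% of all genes given above.

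Among 8 other G alpha genes, 1 was at least 2-fold higher and 0 lower. It was the cone transducin gene Gnat2, chosen after its values were seen, at 4.34 FPKM with ATPγS and 0.232 FPKM in the control, the control value resting on about 1 read. With a pseudocount of 0.1 FPKM the counts higher and lower were 2 and 2, and with 5 FPKM 0 and 0. Of 16 genes listed as beta and gamma subunits, 4 were at least 2-fold higher and 2 lower. The most abundant were Gng5, of a gamma subunit, and Gnb1, of a beta subunit. Gng5 stood at 559 FPKM with ATPγS and 516 FPKM in the control, and Gnb1 at 165 and 161 FPKM in the same order, and the intervals of both include no difference. Gnb2l1, of the related scaffold protein RACK1, chosen after its values were seen, stood at 136 FPKM with ATPγS and 173 FPKM in the control. Gng4 was higher, at 14.4 FPKM with ATPγS and 3.62 FPKM in the control (interval 2.54 to 6.29). The others at least 2-fold higher, chosen after their values were seen, were Gnb3, Gng7 and Gnb1l, each below 8 FPKM in both libraries. Of these, Gnb1l encodes a beta-like protein and was counted with the subunit genes. Gng11 (3.48 FPKM with ATPγS, 8.13 FPKM in the control) and, chosen after its values were seen, Gng8 were at least 2-fold lower, and the intervals of both include no difference. Gng10 stood at 24.8 FPKM with ATPγS and 43.1 FPKM in the control (interval 0.431 to 0.775), and Gngt2 at 26.9 and 15.1 FPKM in the same order (interval 0.992 to 3.15).

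Among 12 receptor kinase and arrestin family genes, 1 was at least 2-fold higher and 0 lower. The higher one was Arrdc2, chosen after its values were seen, at 6.22 FPKM with ATPγS and 2.04 FPKM in the control. With a pseudocount of 0.1 FPKM the counts higher and lower were 1 and 1, and with 5 FPKM 0 and 0. The arrestin-domain genes Txnip (325 FPKM with ATPγS, 255 FPKM in the control), Arrdc4 (101 and 68.8 FPKM) and Arrdc1 (58.3 and 43.5 FPKM) were also higher beyond counting error. The value listed under the receptor kinase gene Grk1 was lower, at 112 FPKM with ATPγS and 123 FPKM in the control (interval 0.855 to 0.965). Whether these cells express Grk1 was not tested. Txnip and Arrdc4 encode regulators of glucose uptake. Adrbk1, the gene of the receptor kinase GRK2, stood at 44.2 FPKM with ATPγS and 55.0 FPKM in the control, and Arrdc3 at 20.3 and 25.4 FPKM in the same order (interval 0.642 to 0.996).

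Among 11 genes of chaperones and receptor-independent regulators, 0 were at least 2-fold higher and 1 lower, Gpsm2, chosen after its values were seen (0.331 FPKM with ATPγS, 2.32 FPKM in the control). Ric8, of a chaperone that folds Gi, Gq and G13 alpha subunits, stood at 22.9 FPKM with ATPγS and 19.6 FPKM in the control, and Ric8b, of the chaperone for Gs, at 6.55 and 3.83 FPKM in the same order (interval 1.03 to 2.81). Gpsm3, of a regulator that binds Gi alpha subunits in leukocytes, stood at 10.3 FPKM with ATPγS and 17.3 FPKM in the control (interval 0.385 to 0.927). Rasd1, of a Ras-like activator of Gi, stood at 13.4 FPKM with ATPγS and 6.48 FPKM in the control (interval 1.28 to 3.61). Pdcl3 and Pdcl, of phosducin-like proteins, had log2 ratios of -0.24 and -0.37, and the intervals of both include no difference.

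Among 22 effector genes, 5 were at least 2-fold higher and 1 lower. At a mean of at least 5 FPKM these counts were 2 and 0, and with a pseudocount of 5 FPKM 0 and 0. The most abundant, Arhgef1, of an effector of G13, was lower, at 45.7 FPKM with ATPγS and 59.9 FPKM in the control (interval 0.663 to 0.875), opposite in direction to Gna13. Pik3r6, of a regulatory subunit of the PI3K gamma that Gi beta-gamma pairs activate, stood at 10.7 FPKM with ATPγS and 4.26 FPKM in the control (interval 1.66 to 3.97). Pik3r5, of the other regulatory subunit, stood at 34.4 FPKM with ATPγS and 21.2 FPKM in the control (interval 1.37 to 1.93), and the catalytic subunit gene Pik3cg, chosen after its values were seen, at 10.8 and 12.3 FPKM in the same order. The adenylyl cyclase gene Adcy6 was higher, at 8.06 FPKM with ATPγS and 3.49 FPKM in the control (interval 1.59 to 3.49). Plcb2, of the phospholipase C beta of myeloid cells, stood at 6.31 FPKM with ATPγS and 0.818 FPKM in the control, and Plcb4 was the 1 at least 2-fold lower. Plcb2, Plcb4 and the 2 other higher genes, Adcy1 and Adcy9, were chosen after their values were seen. Prex1, of the Rac activator that responds to beta-gamma pairs in neutrophils, stood at 11.0 FPKM with ATPγS and 19.1 FPKM in the control (interval 0.474 to 0.704).

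**Figure D5:**
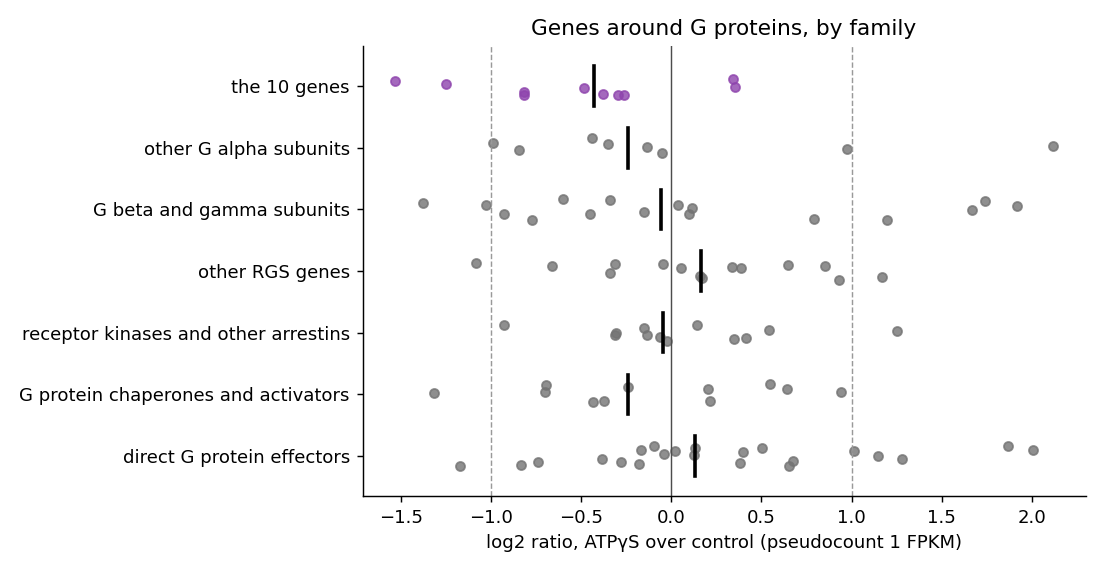
Log2 ratio of ATPγS over control (pseudocount 1 FPKM) of the 10 genes (purple) and of the genes of 6 families around them (grey) at a mean of at least 1 FPKM; thick bars are medians, dashed lines mark 2-fold, and the vertical scatter has no meaning. The median of the 10 genes lies at -0.43, and those of the families between -0.24 and 0.17. The levels are unlike: the 10 genes have means of at least 7.67 FPKM, and the families reach down to 1.14 to 2.10 FPKM. At a mean of at least 5 FPKM the family medians lay between -0.25 and 0.21.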

How the data were processed

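RNA was measured in 1 ATPγS and 1 control library. Per the labels' protocols, Nextera libraries were prepared from SMART-Seq HT cDNA. Per the submitters' processing notes, the tools included Cufflinks 2.2.1, SAMtools 0.1.19, TopHat2 2.0.13 and Bowtie2 2.2.3, and the build was mm10. Annotation and options: not given in the sources used here. The deposited values are FPKM, 1 per gene symbol, and they are not counts. Depth was estimated with Python 3.11.15 from the product of FPKM and coding length of 1430 receptor genes of the olfactory and vomeronasal families, as the depth at which most values under 10 reads came out whole: 64.5% (ATPγS) and 64.8% (control) lay within 0.05 reads of a whole number, where chance gives 10%. Reads per gene used the median length of the gene's coding transcripts in GENCODE M21 (GRCm38, which is mm10; 23310 symbols, 95.7%, matched) and are approximate. Intervals of ratios are 95% exact binomial (Clopper-Pearson), those of a proportion of a pair of genes (10 pairs) exact conditional, and those of levels exact Poisson. They describe counting error alone, because with 1 library per condition no spread between libraries enters them. Duplicates made by PCR look like separate molecules, so the intervals may be too narrow. Log2 ratios used a pseudocount of 1 FPKM, which understates differences of low genes; folds are ratios of FPKM without it. Genes at a mean of at least 1 FPKM entered the counts. No p-value was computed. The 2-fold call, for genes changed at a mean of at least 20 FPKM, and the binomial interval were tried on simulated counts with counting error only. The depth estimate and the reads per gene were not tried in this way. The members and lists were chosen with earlier results of these data known. Named were all members, of each family the 2 most abundant genes, any gene at least 2-fold apart at a mean of at least 5 FPKM and, at that level, the 2 log2 ratios furthest up and the 2 furthest down. Of the sorting antigen, neutrophil and platelet lists the 2 most abundant genes were named. Of the monocyte, dendritic, T and NK and B and plasma cell lists it was the most abundant gene, and of the other marker lists none. Class relatives and neighbours of a member are named for their place. Other names are said to be chosen after their values were seen. Alternatives were other pseudocounts, scalings, filters, thresholds and means.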

Additional observations from a re-analysis of the deposited data

How the results depend on the processing

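No paired analysis was possible because each condition has 1 library, and for the same reason no library could be left out. Scaling the ATPγS library so that genes at a mean of at least 10 FPKM had a median log2 ratio of 0 moved that median by 0.13, from -0.13. None of the 10 genes changed direction under the other pseudocounts (0.1 and 5 FPKM) or scalings; under that scaling Gnai2 stood at -0.13, Gnai3 at -0.69, Gnas at -0.35 and Gna13 at 0.47, and the median of the 10 genes at -0.30. The count of 2 members at least 2-fold lower was 0 with a pseudocount of 5 FPKM (Gna15 -0.85, Rgs18 -0.997) or a threshold of 3-fold, and 4 at 1.5-fold. Of the 83 genes of the families, 12 were higher and 5 lower. The count lower was 12 with a pseudocount of 0.1 FPKM and 3 after scaling to a median of 0. With a pseudocount of 5 FPKM 1 was higher and 1 lower, at a mean of at least 5 FPKM 4 and 2, at 1.5-fold 21 and 16, and at 3-fold 6 and 0. Their median of 0.02 became -0.0239 at a mean of at least 5 FPKM, and their mean was 0.12. The medians of single families changed sign for other G alpha genes by the mean (0.0347), for beta and gamma genes by the mean (0.12) and after scaling to a median of 0 (0.073), for receptor kinases and arrestins by the mean (0.0643), with the same FPKM sum (0.0016) and after scaling to a median of 0 (0.065), and for chaperones and activators at a mean of at least 5 FPKM (0.21). The cause was not tested. Depth limits Gna15, Rgs18 and Arrb2 most, each under 80 estimated reads in either library.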
